A study of Mus musculus with 4 samples.

Results

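The nuclear-encoded subunits of the respiratory chain and of ATP synthase were followed in NIH/3T3 cells, an immortalised line of mouse fibroblasts, after siRNA knockdown of *Setd2*. The set holds every transcript of the deposited table that is annotated as protein coding and whose gene symbol starts with Nduf followed by a, b, c, s or v and a number, with Uqcr, with Cox followed by a number from 4 to 8, or with Atp5, or is *Cyc1*, *Sdha*, *Sdhb*, *Sdhc* or *Sdhd*. It came to 138 transcripts of 80 genes, out of 34200 transcripts tested, 26536 of them protein coding. Of 140 transcripts that matched by symbol, 2 were left out by their category, namely a non-coding RNA of *Ndufb1-ps* and the processed pseudogene *Ndufb4c*. The annotation holds 85 such protein-coding genes, and the 5 that were not among the transcripts tested, *Cox4i2*, *Cox6b2*, *Cox7a1*, *Cox8b* and *Cox8c*, are forms of complex IV subunits known from lung, muscle, heart or testis.

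SETD2 is the methyltransferase that places H3K36me3 along the bodies of transcribed genes, and the study asked what follows for RNA when this mark is depleted. Knockdown (KD) cells received 2 *Setd2* siRNAs together, and the cells labelled wild type (WT) received Scrambled siRNA. Both groups were transfected with Lipofectamine 3000 at 10 nM siRNA and lysed after 48 h, and 2 libraries of polyadenylated RNA were made for each group. The model is thus a transient loss in 1 cell line, with residual *Setd2* mRNA. The labels do not say whether the libraries of a group came from separate cultures, so the spread between these 4 libraries may be technical. Every interval and q-value draws on that spread. The intervals do so through Sleuth's standard errors, which can be larger than the spread observed for a transcript. The deposited table gives, for each transcript, a mean, an effect and variances over the 4 libraries. No single library is read out in it, so each level below is that of a group, the depth behind it is unknown, and overlap between the libraries of KD and WT was not examined.

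The level of the leading *Setd2* transcript was 3680 normalised estimated counts in WT and 923 in KD, a fold change of 0.251 (95% confidence interval 0.221 to 0.285). All 8 fibroblast markers looked up were measured, from 2723 counts for *Pdgfrb* to 346235 for *Col1a2* in WT, whereas the summed markers of epithelial, blood, endothelial, muscle and neuronal cells lay between 21.8 and 355 counts. The reference gene *Actb* was itself higher in KD, with a log2(fold change) of 0.46 ± 0.11 (SE) and a q-value of 0.031 in Sleuth's likelihood ratio test. Dividing by *Actb* therefore lowers every log2(fold change) given here by that amount, and moves the median of all 14776 genes with a protein-coding transcript from 0.019 to −0.44.

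The respiratory chain moves electrons from food to oxygen across the inner mitochondrial membrane and pumps protons on the way, and ATP synthase lets the protons return and makes ATP. Complex I takes electrons from NADH and complex II from succinate, both pass them through ubiquinone to complex III, cytochrome *c* carries them on to complex IV, and complex V is ATP synthase. Most subunits are encoded in the nucleus and imported, while a few membrane subunits of complexes I, III, IV and V are encoded by mitochondrial DNA, so that both genomes have to supply matching parts.

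Transcripts of these complexes were mostly higher in KD than in WT, each by a small amount. A transcript was called when the q-value of Sleuth's likelihood ratio test, adjusted by Benjamini and Hochberg's method over all 34200 transcripts, was under 0.05, and 24 of the 138 transcripts, from 22 genes, were called higher in KD. None was called lower. Of 25 below 0, 5 were under an unadjusted 0.05 in this test and 3 in the Wald test. Among all 34200 transcripts, 11615 were under an unadjusted 0.05 in the likelihood ratio test. Sleuth's Wald test called 39 members higher and 1 lower, and limma's moderated test called 16 higher and 0 lower. Over all transcripts the likelihood ratio test called 7.26% higher and 5.21% lower, the Wald test 10.4% higher and 7.8% lower, and limma 5.44% higher and 4.24% lower. Among the 8 calls that limma did not make were *Ndufa12*, *Ndufb6*, *Ndufs7*, *Sdhc*, *Cox5b*, *Cox6a2* and *Atp5d*. The members are abundant, and abundant transcripts were called more often. Among the 8759 protein-coding transcripts with a mean of at least 1000 counts, 20.7% were called higher and 10.4% lower, against 21 of 85 members (24.7%) higher. The share of members called higher was thus close to that of other abundant transcripts. Above 0 lay 78 of these 85 members (91.8%), against 61.3% of the 8759.

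Summed over its protein-coding transcripts, the median gene of the set had a log2(fold change) of 0.28, a fold of 1.21, and 71 of the 80 genes lay above 0; relative to *Actb* the median was −0.18 with 14 genes above 0. The median was 0.0995 over all genes with a leading transcript of at least 1000 counts. The leading transcripts had a median SE of 0.12, and the 95% confidence interval of the fold lay above 1 for 42 of 80 leading transcripts and below 1 for 1. The members together made up 1.11% of all normalised estimated counts in WT and 1.27% in KD. The plot of the leading transcripts gives each effect with its interval.

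**Figure D1:**
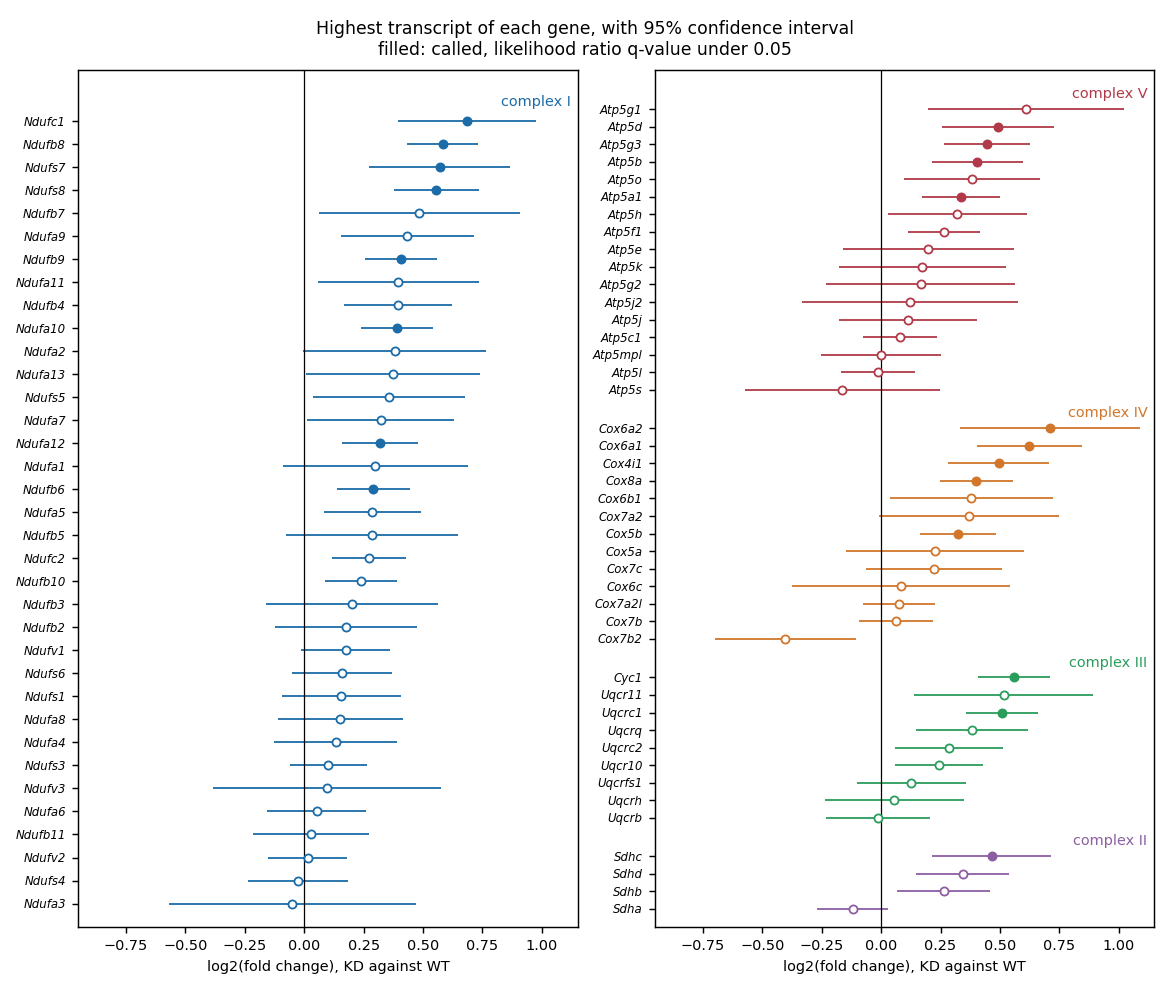
log2(fold change) of KD against WT for the highest transcript of each gene, by complex, with 95% confidence intervals as bars and called transcripts filled. *Ndufa4l2*, at under 10 counts, and 1 gene not reported here are not drawn. Of the 80 leading transcripts 72 lay above 0 and 21 were called, all of them higher in KD, while relative to *Actb* every point moves down by 0.46 and the median of the genes falls to −0.18.

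Complex I, the NADH dehydrogenase, had the most members, with 67 transcripts of 37 genes. Of these, 10 transcripts of 9 genes were called higher in KD and none lower, and the median of the genes was 0.28 (relative to *Actb* −0.17), with 33 of 37 above 0. The called transcripts were 14.9% of the complex, against 7.26% of all transcripts and 20.7% of protein-coding ones with a mean of at least 1000. The *Nduf* genes fall into the N module that oxidises NADH, the Q module that reduces ubiquinone, and the P module in the membrane that pumps protons.

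In the N module the median of 8 genes was 0.14, and 1 transcript was called. *Ndufv1*, which binds the flavin that accepts the electrons, stood at 6216 counts in WT and 7014 in KD, a log2(fold change) of 0.17 ± 0.095 (q-value 0.127). *Ndufs1*, the largest iron-sulphur subunit, stood at 4045 and 4505 counts (0.16 ± 0.13, q-value 0.27), and *Ndufv2* beside the flavin at 3837 and 3875 (0.014 ± 0.084). The called transcript was that of the accessory subunit *Ndufa12*, which rose from 3594 to 4477 counts (0.32 ± 0.082, q-value 0.0308), and 41.0% of its 31-base words occur in no other gene. None of the 3 core subunits of this module was called.

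In the Q module the median of 8 genes was 0.30 and all 8 lay above 0. Its called genes were all core subunits, which carry the last iron-sulphur clusters before ubiquinone or shape its binding site. Among them, *Ndufs8* rose from 5389 to 7922 counts (0.56 ± 0.091, q-value 0.0188) and *Ndufs7* from 1658 to 2462 (0.57 ± 0.15, q-value 0.0464). The core subunit *Ndufs3* stood at 3325 and 3568 counts (0.10 ± 0.083, q-value 0.104), and 45.0% of its words are unique to it.

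In the P module the median of 19 genes was 0.31, and 6 transcripts of 5 genes were called higher. This was 19.4% of its 31 transcripts, against 7.26% of all transcripts and 20.7% of protein-coding ones with a mean of at least 1000. *Ndufb8*, an accessory subunit of the distal membrane arm, rose from 10119 to 15147 counts, a fold of 1.5 (95% confidence interval 1.35 to 1.66, q-value 0.013). *Ndufb9* rose from 9095 to 12065 counts (0.41 ± 0.077, q-value 0.0167), *Ndufb6* from 4922 to 6023 (0.29 ± 0.079, q-value 0.035) and *Ndufa10* from 5116 to 6705 (0.39 ± 0.078, q-value 0.0192). Each of these 4 effects was at least 3 SE from 0. *Ndufc1* had the largest effect of a leading transcript in complex I and was called on both its transcripts, the shorter from 808 to 1301 counts (0.69 ± 0.15) and the longer from 716 to 1027 (0.52 ± 0.12). Just past the threshold were *Ndufb10* (q-value 0.0525), *Ndufc2* (0.0541) and *Ndufb4* (0.0568), with effects of 0.24 to 0.40. The lowest effect of an abundant leading transcript in complex I was that of *Ndufa3*, at 4499 counts in WT and 4343 in KD (−0.051 ± 0.27).

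Among the core subunits of complex I, 3 of 7 leading transcripts were called and the median was 0.17. Among the accessory subunits 6 of 28 (21.4%) were called and the median was 0.29. Of the leading transcripts of all 7259 genes with a mean of at least 1000, 21.9% were called higher. *Ndufa4* is named for complex I but belongs to complex IV. Its leading transcript was the most abundant per length of the *Nduf* genes, with 49959 counts per kb in WT and 54732 in KD (log2(fold change) 0.13 ± 0.13). Its relative *Ndufa4l2*, known as a hypoxia-induced gene, was listed at 8.07 counts in WT and 4.3 in KD, too low for a comparison.

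Complex II, succinate dehydrogenase, has 4 subunits, all nuclear, and also serves the TCA cycle. *Sdhc*, a membrane anchor, rose from 7862 to 10856 counts (0.47 ± 0.13), and its q-value of 0.0498 lay at the edge of the threshold. The other anchor, *Sdhd*, the most abundant per length of the 4, stood at 6370 and 8078 counts (0.34 ± 0.099, q-value 0.0549), and the iron-sulphur subunit *Sdhb* at 4769 and 5724 (0.26 ± 0.10, q-value 0.0909). *Sdha*, the flavoprotein that oxidises succinate, was the exception, with 7234 counts in WT and 6655 in KD (−0.12 ± 0.077, likelihood ratio q-value 0.0828, Wald q-value 0.35). The Wald test, which called 10.4% of all transcripts higher, called *Sdhb*, *Sdhc* and *Sdhd* higher, and limma called none of the complex. The median of the 4 genes was 0.30, and −0.15 relative to *Actb*.

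Complex III, the cytochrome *bc1* complex, had 12 transcripts of 9 genes, and 2 of the transcripts were called higher. This was 16.7%, against 7.26% of all transcripts and 20.7% of protein-coding ones with a mean of at least 1000. The median of the genes was 0.29, and −0.17 relative to *Actb*. *Cyc1*, the cytochrome *c1* that hands electrons to cytochrome *c*, rose from 6173 to 9098 counts, a fold of 1.47 (95% confidence interval 1.33 to 1.64, q-value 0.012). The core protein *Uqcrc1* rose from 5787 to 8234 (0.51 ± 0.077, q-value 0.0146), while its partner *Uqcrc2* stood at 8532 and 10404 (0.29 ± 0.12, q-value 0.102). The Rieske iron-sulphur protein *Uqcrfs1* stood at 3563 and 3893 counts (0.13 ± 0.12, q-value 0.244). The small subunits ranged from *Uqcrb* at 7984 and 7910 counts (−0.013 ± 0.11) to *Uqcr11* at 6375 and 9111 (0.52 ± 0.19, q-value 0.0877), and none of their 8 transcripts was called. *Uqcrh*, the hinge protein, was the most abundant per length, with 49448 counts per kb in WT and 51396 in KD (0.056 ± 0.15).

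Complex IV, cytochrome *c* oxidase, had a median of 0.32 over 13 genes (relative to *Actb* −0.13), or 0.28 with *Ndufa4*, and 5 of its 21 transcripts were called higher. This was 23.8%, against 7.26% of all transcripts and 20.7% of protein-coding ones with a mean of at least 1000. All 10 subunits of the forms used in most tissues lay above 0, with a median of 0.35. *Cox4i1*, the regulatory subunit that binds ATP, rose from 27387 to 38595 counts (0.49 ± 0.11, q-value 0.0313). *Cox6a1* rose from 8182 to 12612, a fold of 1.54 (95% confidence interval 1.32 to 1.8, q-value 0.0218), *Cox8a* from 12341 to 16289 (0.40 ± 0.078, q-value 0.0191) and *Cox5b* from 8589 to 10740 (0.32 ± 0.082, q-value 0.0416). The other abundant subunits were not separated from 0 by this test, among them *Cox6b1* (0.38 ± 0.17, q-value 0.129), *Cox7a2* (0.37 ± 0.19, q-value 0.165), *Cox5a* (0.23 ± 0.19, q-value 0.382), *Cox7c* (0.22 ± 0.15, q-value 0.252), *Cox7b* (0.064 ± 0.08) and *Cox6c* (0.085 ± 0.23), the most abundant per length at 43268 counts per kb in WT.

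Several subunits of complex IV exist in forms known from particular tissues, and these were rare here. *Cox6a2*, the heart and muscle form, rose from 175 to 287 counts (0.71 ± 0.19, q-value 0.0382), and was 1.77% of the *Cox6a* transcripts per length in WT and 1.88% in KD, while *Cox6a1* rose too. *Cox7b2*, the testis form, stood at 553 counts in WT and 418 in KD (−0.40 ± 0.15); its likelihood ratio q-value was 0.0829 and its Wald q-value 0.043, and it was 4.7% of the *Cox7b* transcripts per length in WT and 3.45% in KD. *Cox7a2l*, which joins complexes III and IV into supercomplexes, stood at 11965 and 12617 counts (0.077 ± 0.077, q-value 0.0951).

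Complex V, ATP synthase, had 33 transcripts of 17 genes with 6 called higher, and the lowest median of the complexes, 0.20 (relative to *Actb* −0.26). The called transcripts were 18.2%, against 7.26% of all transcripts and 20.7% of protein-coding ones with a mean of at least 1000. The F1 head, which makes ATP, had a median of 0.33 over 5 genes. *Atp5b*, the catalytic beta subunit and the most abundant member in counts, rose from 61563 to 81523 (0.41 ± 0.098, q-value 0.0262), *Atp5a1*, its alpha partner, from 27217 to 34382 (0.34 ± 0.083, q-value 0.028), and *Atp5d*, the delta subunit, from 6135 to 8623 (0.49 ± 0.12, q-value 0.0389). The gamma subunit *Atp5c1*, the rotating shaft, stood at 16923 and 17870 counts (0.079 ± 0.08, q-value 0.0893), and the epsilon subunit *Atp5e* at 6392 and 7335 (0.20 ± 0.18). In the head, 3 of 5 leading transcripts were thus called, against 21.9% called higher among leading transcripts of all 7259 genes with a mean of at least 1000.

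The peripheral stalk, which holds the head still, had 4 genes, a median of 0.29 and no called transcript. Its *b* subunit *Atp5f1* stood at 14805 and 17780 counts (0.26 ± 0.078, q-value 0.0535), and *Atp5h*, *Atp5j* and *Atp5o* had effects of 0.32 ± 0.15, 0.11 ± 0.15 and 0.38 ± 0.15. The small subunits of the membrane part had the lowest median of complex V's subunits, 0.088 over 4 genes. *Atp5l*, subunit *g* and the most abundant per length in complex V, stood at 41835 counts per kb in WT and 41454 in KD (−0.013 ± 0.08), *Atp5mpl* at 24330 and 24353 (0.0013 ± 0.13) and *Atp5k* at 34766 and 39212 (0.17 ± 0.18). *Atp5s*, a factor outside the main complex, had the lowest effect of complex V, with 251 and 224 counts (−0.16 ± 0.21).

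Subunit *f*, *Atp5j2*, parted between its transcripts. Its main transcript, ENSMUST00000161741.7 (chr5:145183698-145192062 in GRCm38, minus strand), stood at 11267 counts in WT and 12252 in KD (0.12 ± 0.23, q-value 1). A second, ENSMUST00000037056.8 (chr5:145183709-145191592, the same strand), which begins inside the first and has a coding sequence of 231 in place of 267 bases, rose from 607 to 1313 counts, a fold of 2.16 (95% confidence interval 1.79 to 2.61, q-value 0.0113). This was the largest effect among the called members, and the share of this transcript among the gene's counts was 5.11% in WT and 9.68% in KD. The interval of the main transcript's fold, 0.794 to 1.49, did not overlap this one, and the difference itself was not tested.

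The rotating c ring, which proton flow turns, is built from a single protein that 3 genes encode with the same mature part and different import signals. *Atp5g3* was called on both its transcripts, from 13205 to 17985 counts (0.45 ± 0.093, q-value 0.0287) and from 4962 to 6444 (0.38 ± 0.079, q-value 0.0231). *Atp5g1*, which had the largest effect of a leading transcript in complex V, stood at 7200 and 10990 counts (0.61 ± 0.21, q-value 0.078, Wald q-value 0.0245), and *Atp5g2* at 1360 and 1528 (0.17 ± 0.20). *Atp5g3* supplied 62.9% of the *Atp5g* transcripts per length in WT and 61.0% in KD, *Atp5g1* 32.5% and 35.3%, and *Atp5g2* 4.62% and 3.74%. The last 78 codons before the stop of *Atp5g1* and *Atp5g2* specify the same amino acids with 84.8% of bases identical, stop codon included, and the last 86 of *Atp5g1* and *Atp5g3* with 78.9%. The end of the coding sequence is shown because it lets the 3 genes be told apart by bases although they encode the same residues. The last 30 coding bases, stop codon included, lie in the last coding exon of each gene, on the minus strand, at chr11:96073104-96073133, chr15:102663014-102663043 and chr2:73908593-73908622 in GRCm38 (GENCODE M21), with the 9 positions that differ in capitals.
Atp5g1: gtCgcCttCCtCatcCtCttCgccatgtGa
Atp5g2: gtGgcCttTCtCatcCtCttCgccatgtGa
Atp5g3: gtTgcGttCTtGatcTtGttTgccatgtAa
Only 32.7% of the 31-base words of *Atp5g1* and 12.3% of those of *Atp5g2* occur in no other gene of the annotation, so the split of reads between these 2 and their copies is uncertain.

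The complexes overlapped widely. The middle 50% of genes ran from 0.13 to 0.38 in complex I, from 0.17 to 0.37 in complex II, from 0.13 to 0.51 in complex III, from 0.081 to 0.40 in complex IV and from 0.11 to 0.38 in complex V, so that the medians, 0.20 to 0.32, lay within each other's spread, and relative to *Actb* they kept the same distances at −0.26 to −0.13. Genes of a complex are not replicates, and no test between complexes was made. The share of transcripts called higher was 14.9%, 20%, 16.7%, 23.8% and 18.2% in complexes I to V. It was 7.26% over all transcripts and 20.7% among protein-coding ones with a mean of at least 1000. Moving *Ndufa4* to complex IV, where it belongs, and leaving *Ndufa4l2* out gave medians of 0.29 for complex I and 0.28 for complex IV. The levels differed more than the effects. Per kb, the median subunit stood at 19320 counts in WT for complex IV and 12081 for complex V, against 4617 for complex I, 4500 for complex III and 3335 for complex II. Counts were divided by full annotated length, with no allowance for fragment length. The median length ran from 645 bases in complex IV to 2065.5 in complex II, so levels and ranks of short transcripts are approximate.

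**Figure D2:**
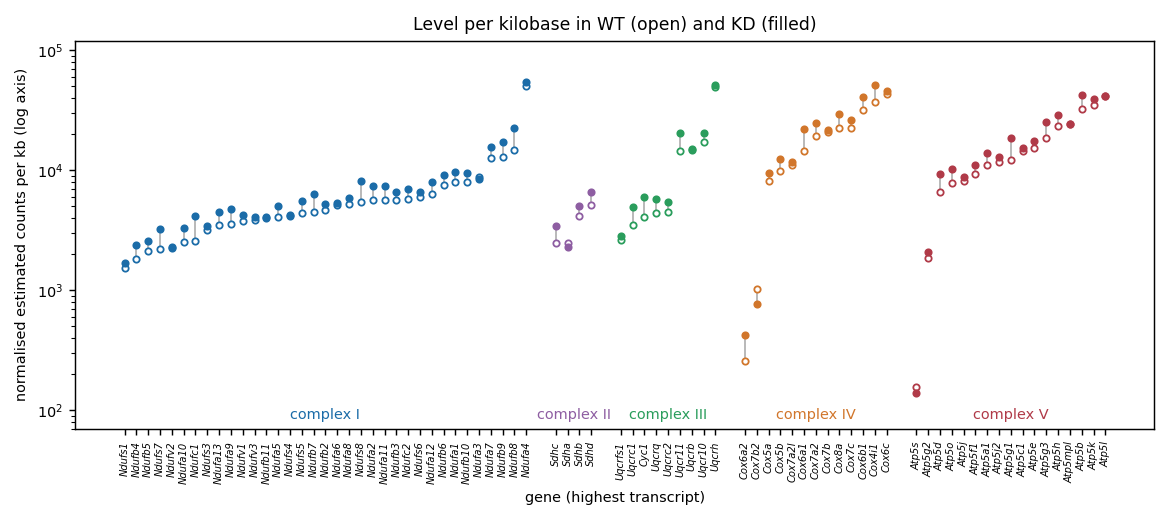
Normalised estimated counts per kb of the highest transcript of each gene in WT (open) and KD (filled) on a log axis, ordered by WT level within each complex. The genes of complexes IV and V are mostly above those of complexes I, II and III, and the rare tissue forms *Cox6a2* and *Cox7b2* and the factor *Atp5s* lie far below the rest. *Ndufa4l2* and 1 gene not reported here are not drawn.

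The subunits encoded by mitochondrial DNA did not share this direction. All 13 had a log2(fold change) below 0, with a median of −0.28, against 0.28 for the 80 nuclear genes. None was called by the likelihood ratio test, with q-values from 0.0513 to 0.644. Before adjustment 7 of the 13 were under 0.05 in this test and 5 in the Wald test. Of all 34200 transcripts, 11615 were under 0.05 in the likelihood ratio test before adjustment. The Wald test and limma each called *mt-Atp8* alone, at 274652 counts in WT and 206808 in KD (−0.41 ± 0.14, Wald q-value 0.018, limma's adjusted p 0.0292). By complex, the median was −0.29 for the 7 *mt-Nd* genes of complex I, −0.21 for *mt-Cytb*, −0.12 for the 3 of complex IV and −0.25 for the 2 of complex V. The lowest effect was that of *mt-Co2*, with −0.55 ± 0.24 (q-value 0.108), and *mt-Co1*, at 2202590 and 2021230 counts, had −0.12 ± 0.29. The 13 transcripts share a genome, their genes abut or overlap, and their summed counts were 13.7% of all counts in WT and 11.02% in KD, a difference that was not tested. The library kit selected polyadenylated RNA. In bulk RNA, fewer mitochondria in a cell and less RNA in each cannot be told apart.

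**Figure D3:**
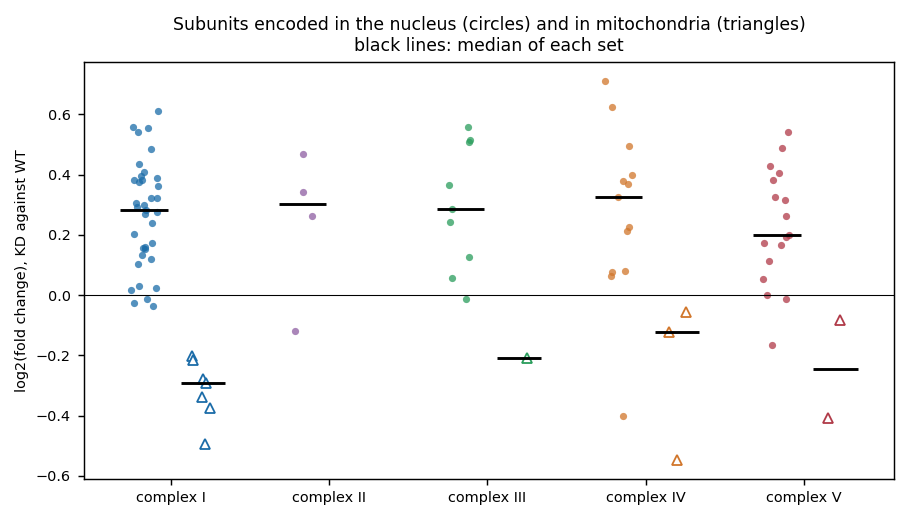
log2(fold change) of KD against WT by complex for nuclear genes summed over their transcripts (circles) and for subunits encoded in mitochondria (triangles), with the median of each set as a black line. The nuclear medians lie between 0.20 and 0.32 and the mitochondrial ones between −0.29 and −0.12, while relative to *Actb* all points move down by 0.46 and the nuclear medians also fall below 0. *Ndufa4l2* is counted in the median and not drawn, and complex II has no mitochondrial subunit.

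Genes that build or serve the chain were counted in 4 lists, beside 7.26% of all transcripts called higher and 5.21% lower. Among assembly factors, 50 of 52 listed genes were measured, 10 of 80 transcripts were called higher and 1 lower, 35 genes lay above 0, and the median was 0.093. *Uqcc1* and *Uqcc2*, which help to assemble complex III, rose from 1889 to 2834 counts (0.58 ± 0.094, q-value 0.0154) and from 8106 to 11959 (0.56 ± 0.14, q-value 0.0415). *Lrpprc*, which stabilises mitochondrial mRNA, rose from 8616 to 12488 counts (0.54 ± 0.077, q-value 0.0149), and the complex IV factors *Taco1* (0.58 ± 0.125), *Coa3* (0.56 ± 0.10), *Coa5* (0.39 ± 0.084), *Surf1* (0.39 ± 0.11) and *Pet100* (0.36 ± 0.097) rose as well, as did *Atpaf2* for complex V and *Timmdc1* for complex I. *Sdhaf4*, which helps *Sdha* into complex II, fell from 1211 to 891 counts (−0.44 ± 0.12, q-value 0.047). The other complex II factors, *Sdhaf1* (0.042 ± 0.16), *Sdhaf2* (0.34 ± 0.12) and *Sdhaf3* (−0.32 ± 0.14), were not called.

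Of 14 electron carrier genes with 21 transcripts, *Coq4* (0.66 ± 0.13) and *Coq5* (0.43 ± 0.089), both of ubiquinone synthesis, were called higher and none lower, with a median of 0.24. The Wald test called 4 higher and 1 lower, namely *Coq2* (−0.23 ± 0.089, Wald q-value 0.0484). Cytochrome *c* itself, *Cycs*, stood at 7577 and 8175 counts (0.11 ± 0.094, q-value 0.157). Of 14 TCA cycle genes with 21 transcripts, 4 transcripts were called higher and 2 lower, with a median of 0.13, and among abundant protein-coding transcripts 20.7% were called higher and 10.4% lower. Citrate synthase *Cs*, the entry step, rose from 16330 to 25227 counts (0.63 ± 0.079, q-value 0.011), and *Idh3b* and *Mdh2* rose by 0.39 and 0.48 on the log2 scale, whereas fumarase *Fh1* fell from 4787 to 3425 counts (−0.48 ± 0.082, q-value 0.0196) and a transcript of *Suclg2* from 3384 to 2432 (−0.48 ± 0.10, q-value 0.0309). Of 16 genes with 38 transcripts that regulate mitochondrial biogenesis, 3 transcripts were called higher, a share close to the 7.26% of all transcripts. *Polrmt*, the mitochondrial RNA polymerase, rose from 1612 to 2605 counts (0.69 ± 0.11, q-value 0.0167). A transcript of *Pprc1*, a coactivator, rose from 2315 to 3576 (0.63 ± 0.11, q-value 0.0172) and *Polg*, the mitochondrial DNA polymerase, from 3867 to 4614 (0.255 ± 0.081, q-value 0.0417). None of these 38 was called lower by this test, while the Wald test called 6 higher and 1 lower, namely *Tfb2m* (−0.29 ± 0.099, Wald q-value 0.022). Of the 16 genes 15 lay above 0, and the list's median was 0.20, against 0.019 for all genes. Among all protein-coding transcripts 52.2% lay above 0. *Tfam*, which packages mitochondrial DNA, had a leading transcript at 2298 and 2624 counts (0.19 ± 0.11, q-value 0.17). The most abundant transcript of *Gabpa* stood at 2573 and 2552 (−0.012 ± 0.09), and another at 997 and 1222 (0.29 ± 0.12, q-value 0.0891). *Yy1* stood at 4643 and 5080 (0.13 ± 0.079, q-value 0.0751). Summed over its transcripts, *Nrf1* had 0.46, and its ENSMUST00000115206.7 stood at 305 and 506 counts (0.73 ± 0.22, q-value 0.0509, Wald q-value 0.00754). Relative to *Actb* the median of each of these 4 lists falls below 0.

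Base composition moved with the effect. Across the 80 leading transcripts the effect and the GC content had a Spearman correlation of 0.49 and a Pearson correlation of 0.43, given as a description, since the transcripts come from the same 4 libraries. Over 7259 genes with a leading transcript of at least 1000 counts the values were 0.40 and 0.37, so the relation is not particular to the chain. The 40 members with the lower GC content, 36.7% to 51.7%, had a median effect of 0.22 with 8 called, while the 4376 abundant genes in that range had a median of 0.0084. The 40 with the higher GC content, 51.7% to 61.1%, had 0.37 with 13 called, against 0.24 for 2728 genes. Centred on the GC content, the median of the genes was 0.24, and 4 of the 24 called transcripts no longer passed the Wald test, among them *Ndufb9* (q-value 0.0612), *Ndufs7* (0.0847) and *Atp5d* (0.0872). The part that base composition has in these effects was not tested further. The members are also short, with a median of 739 bases and 4 exons against 3114 bases and 10 exons for abundant genes, but length and effect had a Spearman correlation of 0.022 among them.

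**Figure D4:**
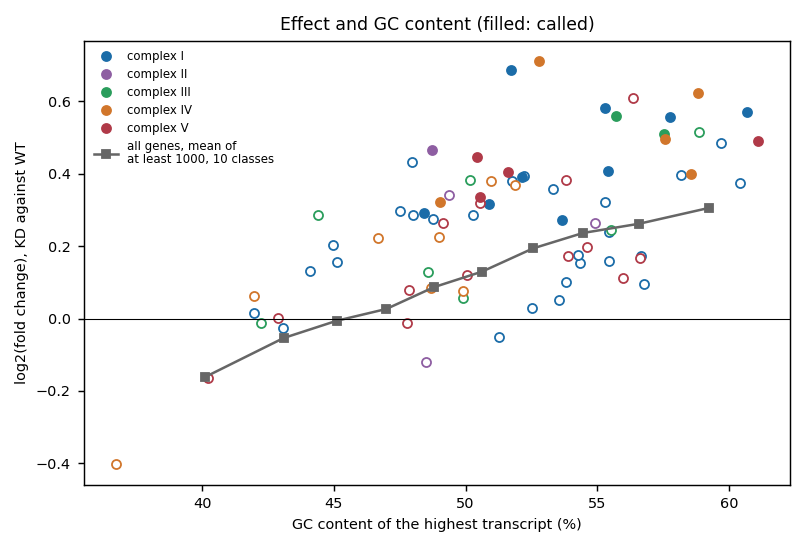
log2(fold change) of KD against WT and GC content of the highest transcript of each gene, coloured by complex, with called transcripts filled. The grey squares are the medians of all genes with a mean of at least 1000 counts in 10 classes of GC content, which run from −0.16 to 0.31, and most members lie above this line; relative to *Actb*, members and line both move down by 0.46. *Ndufa4l2* is not drawn.

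Copies of these genes elsewhere in the genome limit some values. Of the 80 leading transcripts, 21 had only 31-base words that occur in no other gene of the annotation, and the median was 92.9% unique words. In 9 the share was under 50%, namely *Atp5g2* (12.3%), *Atp5l* (14.6%), *Atp5g1* (32.7%), *Atp5o* (36.8%), *Atp5h* (39.2%), *Ndufa12* (41.0%), *Uqcrb* (41.8%), *Cox7c* (44.3%) and *Ndufs3* (45.0%), and of these only *Ndufa12* was called. The called transcripts had a median of 95.9%. Whether strand was used in quantification is not given in the sources used here.

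Of the 80 genes 41 had several protein-coding transcripts, and 3 transcripts other than the leading one were called. Besides *Atp5j2*, *Ndufb8* had a longer and rarer transcript at 670 and 575 counts (−0.22 ± 0.14, q-value 0.152) beside its called one, and a second transcript of *Ndufv3* stood at 420 and 330 (−0.35 ± 0.16, q-value 0.0967) beside a main one at 1879 and 2008 (0.096 ± 0.24). A second transcript of *Ndufa6* stood at 243 and 172 counts (−0.49 ± 0.21, q-value 0.099). None of these was called lower.

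Promoters of respiratory genes are known for binding sites of NRF1, of the ETS family factor GABP and of YY1, and the members were searched for a word of each because they were mostly above 0 together. RefSeq promoters (GRCm38.p6, 250 bases before to 50 after the start) matched 63 of the 80 genes by symbol. The NRF1 word CGCATGCG, its own reverse complement, was in 14.3% of them, against 5.31% of 5837 abundant genes and 2.07% of 27025 genes in the table. The ETS word CCGGAAG, read on both strands, was in 25.4%, against 24.0% and 9.93%, and the YY1 word AAGATGGC in 14.3%, against 6.73% and 3.19%. Compared with other abundant genes, the share was thus larger for NRF1 and YY1 and alike for ETS. Among members with a called transcript the shares were 2 of 15, 4 of 15 and 4 of 15, and among the others 7, 12 and 5 of 48.

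**Figure D5:**
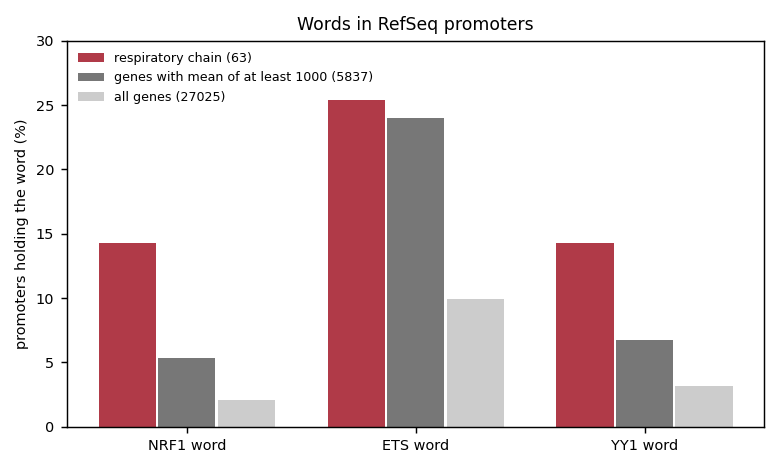
Share of RefSeq promoters that hold the NRF1, ETS or YY1 word among 63 respiratory chain genes, 5837 genes with a transcript of at least 1000 counts and 27025 genes. The bars of the respiratory chain reach 14.3%, 25.4% and 14.3%, and those of abundant genes 5.31%, 24.0% and 6.73%.

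Only these 300 bases were searched, and the words lay throughout, from −241 for an NRF1 word of *Atp5l* onwards. Of 9 NRF1 words 1 lay after the start. Of 9 YY1 words, 8 lay after the start site and all 9 were on the strand of the gene, where the letters contain an ATG and so can overlap the beginning of a coding sequence. Of 19 ETS words in 16 genes 6 lay after the start. The windows shown are those of 6 genes with a called transcript, 30 bases each, 5′ to 3′ along the gene with the word in capitals, and an ETS word on the opposite strand reads as CTTCCGG. They lie in GRCm38.p6 at chr5:115349101-115349130 and chr5:115348956-115348985 (*Cox6a1*, minus strand, at −161 and −16 bases from the start), chr9:108936668-108936697 (*Uqcrc1*, plus, at 32), chr19:3912741-3912770 (*Ndufs8*, minus, at 16), chr3:51408915-51408944 (*Ndufc1*, minus, at 23), chr10:80249462-80249491 (*Ndufs7*, plus, at 25) and chr5:145191500-145191529 (*Atp5j2*, minus, at 24), with positive distances after the start. The *Atp5j2* window lies within the span of both transcripts of that gene. It is nearer to the start of the rarer, called transcript than to that of the main one.
Cox6a1, NRF1: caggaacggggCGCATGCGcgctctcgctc
Cox6a1, ETS: ccccatttccgCTTCCGGcgcgccggtgta
Uqcrc1, NRF1: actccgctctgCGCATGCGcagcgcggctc
Ndufs8, ETS: ttaggctccgcCTTCCGGttgaaccgcatc
Ndufc1, YY1: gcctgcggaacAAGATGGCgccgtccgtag
Ndufs7, YY1: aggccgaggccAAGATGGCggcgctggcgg
Atp5j2, YY1: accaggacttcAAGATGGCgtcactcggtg
A word is a match of letters in a window and shows no binding.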

How the data were processed

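RNA-seq of NIH/3T3 cells was analysed for 2 KD and 2 WT libraries, grouped by the labels. After adapter trimming (BBDuk), the authors pseudoaligned the reads in Kallisto and tested KD against WT in Sleuth. The submitters' processing notes also name bcl2fastq 2.17, HISAT2 and GRCm38. The index and the filter on low counts are not given in the sources used here. Means, effects and standard errors, as deposited, are natural log values of estimated counts that the authors had scaled per library, with 0.5 added, and other deposited columns are variances on that scale. The deposited score is Sleuth's likelihood ratio statistic, and its p-values and q-values, and those of the Wald test, are deposited too. These columns are the authors' own comparison; since the deposited values hold nothing else, the calls given here are Sleuth's. The gene table, with p-values that carry no direction, was not used.

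The design had assumed estimated counts of each library. Here, each effect was turned into a log2(fold change). A group's level was the exponential of the mean plus or minus 0.5 times the effect, minus 0.5, and levels were summed over protein-coding transcripts of a gene. A leading transcript is the highest of its gene. Levels and shares per length use the full annotated length, with no allowance for fragment length, so ranks among short transcripts are approximate. Intervals are at 95% from the deposited standard errors, which cover variance between libraries and read assignment. The variance between libraries that the tests used is deposited apart from the observed one. A standard error can thus exceed the observed spread, as for *Ndufb9*, with 0.077 against an SD of 0.018 on the log2 scale. Recomputing the likelihood ratio statistic from the deposited variances showed that its 2 models carry different variances, so an unadjusted p-value can be under 0.05 for an effect near 0 (1041 of 11615 transcripts had an effect under 1 standard error), while every call lay at least 2.58 standard errors from 0.

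limma 3.58.1 (R 4.3.3) moderated the variances with a trend on the mean. On simulated data with 18832 transcripts it recovered 76% of changes of 1 and 15% of 0.5 on the log2 scale, with 8.08% false among the called. Annotation came from GENCODE M21, and 33720 of 34200 transcripts matched by version, 472 by identifier alone and 8 not at all. GC content and length were centred over 50 classes.

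The members, lists and tests were chosen with earlier results of these data known. The genes named are the called members, in each complex the most abundant per length and the largest and smallest effect among leading transcripts of at least 100 counts, subunits with alternative forms, and core subunits, except for genes that are not reported here. The cell type markers, the transcripts that part from their gene's main one and the printed windows were chosen after their values were seen.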

Additional observations from a re-analysis of the deposited data

How the results depend on the processing

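No paired analysis was possible because the files hold 1 effect for each transcript and no value of a single library, so the replicate block could not be fitted, and leaving out each replicate in turn was not run for the same reason. Depth is unknown, and there are 2 libraries a group. The 24 calls became 39 with the Wald test, 16 with limma, 34 when transcripts under a mean of 100 were left out and p-values adjusted again, 28 when centred on GC content with the Wald test and 37 when centred on length with the Wald test. Calls lower in KD, 0 before, became 1 with the Wald test (*Cox7b2*), 2 with the limit of 100 (*Cox7b2*, and *Sdha* at an effect of 1.56 standard errors), 2 when centred on GC content (second transcripts of *Ndufv3* and *Ndufa6*) and 1 when centred on length. For complex I, 10 became 16 with the Wald test, 6 with limma and 14 under the limit of 100. Centred on GC content and on length, complex I had 9 and 15, and 2 were lower when centred on GC content. For complex II, 1 became 3 with the Wald test, 0 with limma and 2 under each of the other 3, with 1 lower under the limit of 100. For complex III, 2 became 5 with the Wald test, 4 under the limit of 100 and centred on GC content, and 6 centred on length, and stayed with limma. For complex IV, 5 became 3 with limma and 6 centred on GC content, and stayed under the other settings. In this complex 1 was lower with the Wald test, under the limit of 100 and centred on length. For complex V, 6 became 10 with the Wald test, 5 with limma, 9 under the limit of 100, 7 centred on GC content and 9 centred on length.

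The median of 0.28 lay between 0.24 and 0.28 with the highest transcript alone, transcripts of every category, the limit of 100 and centring on GC content or length, and was 0.18 relative to protein-coding transcripts with a mean of at least 1000, an alternative chosen after seeing the data, under which complex I had 0.18 and complex V 0.099 with 13 of 17 genes above 0. The order of the complexes changed with the setting. Complex III had 0.291 and complex IV 0.289 when centred on GC content, and complexes I, III and IV had 0.280, 0.270 and 0.265 when centred on length. Relative to *Actb* the medians reversed, to −0.18 for all genes and −0.17, −0.15, −0.17, −0.13 and −0.26 for complexes I to V, while the median of all genes was −0.44. Relative to *Actb*, 13 called transcripts stayed above 0 and 11 reversed, among them *Atp5a1* (−0.12), *Atp5b* (−0.051), *Atp5g3* (−0.010 and −0.079), *Cox5b* (−0.13), *Cox8a* (−0.056), *Ndufa10* (−0.066), *Ndufa12* (−0.14), *Ndufb6* (−0.16) and *Ndufb9* (−0.048). The SE of the *Actb* effect, 0.11, was not carried into these values. Several are smaller than it, as is that of *Sdhc* (0.0094), counted as above 0, and their sign is not settled. Of the 24 called transcripts, 24 passed the Wald test, 16 limma, 20 centred on GC content and 24 centred on length.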
